A study of Mus musculus with 16 samples.

Results

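Interferon-induced genes and the class I antigen presentation genes that interferon raises were followed through the hypothalamus of lean mice and a ribosome pulldown from its prepronociceptin (Pnoc) neurons. The set held 39 gene names, picked by name with earlier results of these data known, and these names matched 40 of the 45706 gene rows of the count table because Gbp6 had a pair of rows. The members were grouped by role into sensors, signal and transcription factors, the ISG15 system with a ubiquitin ligase, antiviral effectors, other interferon-induced genes, interferon-induced GTPases, and antigen presentation. RNA was measured by bacTRAP, which tags the ribosomal protein L10a with GFP and pulls the tagged ribosomes out of a lysate with an antibody against GFP. The tagged protein came from a Cre-dependent allele and Cre from Pnoc, so the pulldown is meant to hold ribosome-bound RNA of Pnoc neurons. The input is an aliquot of the same lysate taken before precipitation. Markers of other cell types were detected in pulldown as well, and how much of a member's pulldown level came from other cells was not measured. Input and pulldown libraries, 16 in all, were made from control pools 1 to 4 (labelled Lepr-flox) and from pools 5 to 8, in which the leptin receptor gene Lepr was deleted in Pnoc cells. All animals had a C57Bl/6N background and ate chow, and tissue was taken in the random-fed state in the morning, at 12 weeks of age per the treatment protocol and 10 to 12 weeks per the extraction protocol. Each pool combined the hypothalami of 4 animals, and the errors given rest on the spread between pools, not between single animals. The labels name no infection and no interferon treatment.

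Library totals were 64435888 to 78623579 estimated counts. Levels below are TMM-scaled CPM, that is counts relative to library size, and 3 counts, taken as the floor of detection, correspond to 0.0469 to 0.0562 CPM in input and 0.0320 to 0.0395 CPM in pulldown. Pnoc stood at 2.21 to 2.97 CPM in the 8 input libraries and at 6.96 to 10.1 CPM in the 8 pulldown libraries, and 12 of 12 neuronal markers were higher in pulldown in both genotypes. Lepr was at 1.42 to 1.86 CPM in control pulldown and at 2.42 to 2.82 CPM in deletion pulldown, higher in the libraries labelled as the deletion. A gene-level total cannot show which exons were removed, so this checks nothing about the labels. Control pool 1 stood apart from the other control pools for many members: the summed antiviral effectors were 75.0 CPM in its input against 51.0 to 55.0 CPM in the inputs of pools 2 to 4, and 58.7 against 40.0 to 44.6 CPM in pulldown.

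Interferons are secreted proteins, and those of type I are released by cells on meeting viral nucleic acid. Type I interferons signal through receptor-bound kinases to a complex that includes STAT2 and IRF9 and binds the interferon-stimulated response element, while the response to interferon gamma runs through the gamma-activated site. The genes so induced detect viral RNA, block the entry, translation and release of viruses, attack the vacuoles of intracellular parasites, and load peptides onto class I molecules for T cells. In the healthy brain microglia, endothelial cells and other non-neuronal cells carry many of these transcripts at a low tonic level, and neurons are known for low class I expression.

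Promoter windows of some members hold letters that match these elements. Windows of 8 members are printed to show where the letters fall in genes described below. These 8 were chosen after their values were seen. RefSeq promoter windows of GRCm38.p6, from 250 bases before to 50 bases after each annotated start, were found for 29 of the 39 names. The patterns searched were these, on both strands: GAAANNGAAA (reverse complement TTTCNNTTTC), a core of the interferon-stimulated response element, and TTCNNNGAA, the gamma-activated site, which reads the same on both strands. Capitals mark the matches, and overlapping matches run together. Isg15, which encodes a ubiquitin-like protein, has 3 overlapping response element matches (minus strand, chr4:156200819-156200938).
Isg15: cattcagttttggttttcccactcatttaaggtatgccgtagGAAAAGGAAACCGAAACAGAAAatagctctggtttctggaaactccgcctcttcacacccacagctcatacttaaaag
In Gbp3, a guanylate-binding GTPase, a pair of matches overlap on the reverse strand of the printed window (plus strand, chr3:142559924-142560043, the first of 2 annotated windows).
Gbp3: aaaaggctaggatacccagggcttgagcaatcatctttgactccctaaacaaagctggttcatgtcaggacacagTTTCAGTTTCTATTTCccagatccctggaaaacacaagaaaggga
Ifit1 (plus strand, chr19:34640769-34640888) and Ifit3 (plus strand, chr19:34583369-34583488), neighbouring genes among the antiviral effectors, hold 2 separate matches each.
Ifit1: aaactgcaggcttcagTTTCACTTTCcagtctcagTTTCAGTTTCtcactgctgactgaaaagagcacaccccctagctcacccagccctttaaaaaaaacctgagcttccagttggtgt
Ifit3: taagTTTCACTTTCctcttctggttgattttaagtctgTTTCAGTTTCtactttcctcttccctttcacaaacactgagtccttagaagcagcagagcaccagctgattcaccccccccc
Ifit2 lies in the same cluster, and in its first of 2 windows the 120 bases before the start (plus strand, chr19:34550574-34550693) hold no match to either pattern; its only match in that window is a gamma-activated site that begins 241 bases before the start, outside the stretch printed.
Ifit2: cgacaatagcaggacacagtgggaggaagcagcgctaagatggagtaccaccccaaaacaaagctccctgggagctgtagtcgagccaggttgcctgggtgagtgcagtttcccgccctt
B2m, the light chain of class I molecules, has 1 response element match (plus strand, chr2:122147527-122147646).
B2m: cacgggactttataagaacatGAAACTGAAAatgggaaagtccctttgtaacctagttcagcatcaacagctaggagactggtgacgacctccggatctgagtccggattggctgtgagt
Irf1, a transcription factor induced by interferon gamma, has a gamma-activated site (plus strand, chr11:53769894-53770013, the first of 2 windows).
Irf1: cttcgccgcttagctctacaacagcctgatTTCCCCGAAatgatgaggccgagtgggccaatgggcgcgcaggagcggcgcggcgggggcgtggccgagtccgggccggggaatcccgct
H2-D1, a class I heavy chain, has neither pattern in its window (plus strand, chr17:35262974-35263093).
H2-D1: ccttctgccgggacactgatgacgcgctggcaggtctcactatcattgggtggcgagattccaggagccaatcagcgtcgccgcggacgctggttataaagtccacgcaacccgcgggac
Over all members with a window, 16 of 29 (55.17%) held the response element letters, against 1079 of 27025 genes (3.993%). The gamma-activated site letters were found in 9 of 29 members (31.03%) and in 9.554% of all genes. Members without response element letters include the class I genes H2-K1 and H2-D1. A match is a run of letters and not a measured binding site, and the absence of one says only that these letters are not in this window.

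**Figure D1:**
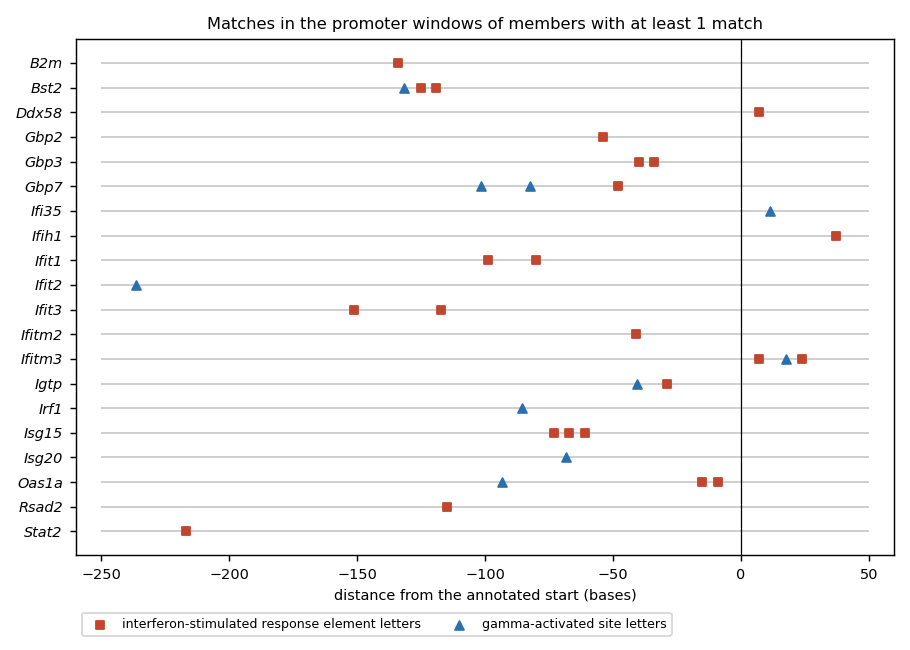
Positions of the letter matches in the promoter windows of the members with at least 1 match; the x axis is the distance in bases from the annotated start, squares are response element letters and triangles gamma-activated site letters. The 3 squares of Isg15 and the triangle of Irf1 lie within the 120 bases before the start.

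Per transcript length, B2m was the most abundant member in every group, at 106 ± 12.0 TPM (transcript abundance corrected for length; SD, n = 4) in control input and 78.2 ± 4.55 TPM in control pulldown. Ifi27, which encodes a small mitochondrial membrane protein, followed in every group, with 23.5 ± 1.25 and 37.5 ± 5.59 TPM in control input and pulldown. The ranks after these differed between fractions. In control input the next members were Ifitm3 at 17.8 ± 5.92 TPM, which did not differ from Ifi27 beyond its spread, then Ifit2 at 8.85 ± 1.54, Ifitm2 at 8.37 ± 2.10 and Lgals3bp at 8.05 ± 1.85 TPM, whose ranges overlap. In control pulldown they were Ifit2 at 24.3 ± 3.45, Lgals3bp at 18.9 ± 1.03 and H2-D1 at 14.5 ± 2.28 TPM, and Ifitm3 had fallen to 2.75 TPM. At the other end Mx1, Oas1a and Zbp1 were near or below the floor in most pulldown libraries; Mx1 and Mx2 are annotated as transcribed pseudogenes in this reference strain.

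**Figure D2:**
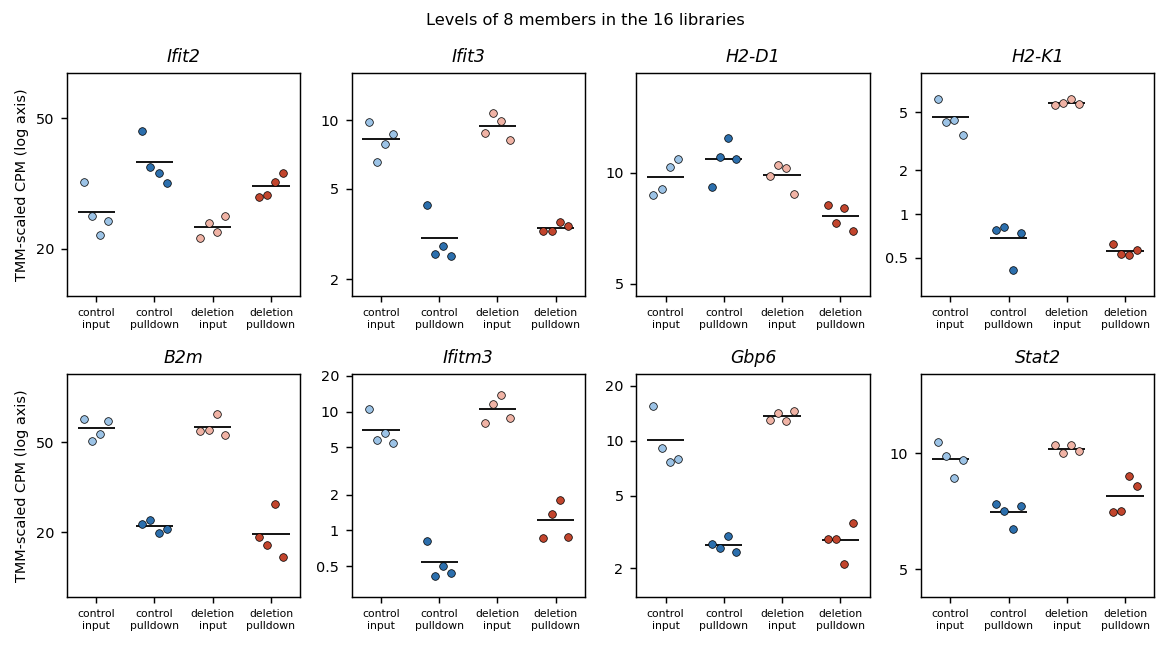
TMM-scaled CPM of 8 members in each of the 16 libraries on a log axis; points are libraries, bars are group means, and deletion means Lepr deletion. In Ifit2 the pulldown points lie above most input points, in H2-D1 the deletion pulldown lies below the other groups, and in the remaining 6 members the pulldown of each genotype lies below its input.

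The first comparison asked which members stood at a higher or lower level in the pulldown than in the whole hypothalamic lysate. In the control pools, interferon-induced transcripts were mostly lower in pulldown: of 38 members tested, 31 were lower, 1 was higher and 6 did not pass (edgeR quasi-likelihood test, Benjamini-Hochberg adjusted p under 0.05), while 34.6% of all genes tested were lower and 30.1% higher. With library totals, under which the median of all genes lies at 0.53, 25 members were lower and 3 higher, against 19.0% and 60.9% of all genes. On log2(TPM + 1), where that median is 0.75, 18 were lower and 6 higher, against 13.5% and 72.3%. On that scale 9 members turned above 0, and 8 of these 9 still lay below the median of all genes. The median member had a log2 fold change of -1.52 against -0.02 for all genes. In 29 members every pulldown library lay below every input library, which was the case for 31.2% of all genes. The values are levels in bulk samples, in which fewer cells of a type and less RNA per cell cannot be told apart. Most markers of non-neuronal cells were lower too: 17 of 18 microglia and macrophage markers tested, 12 of 12 of astrocytes, 12 of 12 of oligodendrocytes and their precursors, 10 of 10 of tanycytes and ependyma, and 10 of 11 of mural cells and fibroblasts. For microglia and macrophages the summed level was 99.3 to 118 CPM in input and 13.6 to 14.1 CPM in pulldown. Of 11 endothelial markers tested, 8 were lower and 1, Itm2a, was higher, at 0.72 ± 0.10. These markers summed to 18.2 to 22.7 CPM in input and 14.2 to 16.6 CPM in pulldown, with Cldn5 at 0 in all 4 control pulldown libraries, and mural and fibroblast markers to 49.4 to 72.2 and 4.78 to 8.17 CPM. Markers of T cells, B cells and other leukocytes summed to at most 2.99 CPM in control input and 0.598 CPM in control pulldown, where Cd3g, Cd8a, Ms4a1 and Nkg7 were at 0. The part of these cells in the members' fold changes was not tested.

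Among the sensors of viral nucleic acid, 3 of 4 were lower in control pulldown and 1 did not pass. Ddx58 (RIG-I, chromosome 4, 40203777 to 40239825, GRCm38.p6) stood at 6.84, 5.60, 5.69 and 5.52 CPM in the inputs of control pools 1 to 4 and at 2.34, 2.02, 3.05 and 2.32 CPM in their pulldowns. The groups did not overlap, and the log2 fold change was -1.30 ± 0.14 (SE; edgeR adjusted p = 6.3e-06). Ifih1 (MDA5, the sensor of long double-stranded RNA, chromosome 2, 62595618 to 62646255) had 7.36, 6.37, 6.19 and 6.28 CPM in input and 1.27, 1.20, 1.71 and 1.81 CPM in pulldown. Again the groups stood apart, by -2.14 ± 0.15 on the log2 scale (edgeR adjusted p = 1.8e-07). Dhx58 (LGP2), which modulates both, ranged from 0.178 to 0.964 CPM in input and 0.310 to 0.417 CPM in pulldown and did not pass. Zbp1, a sensor of Z-form nucleic acid, had a log2 fold change of -2.44 ± 0.93 with an adjusted p of 0.037 from edgeR, but 3 of 4 pulldown libraries were at 0 and leaving out any single library other than control pulldown 4 ended the call.

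Of the 4 signal and transcription factors, 3 were lower and 1 did not pass, with a median of -0.70 against -1.72 for the sensors. Stat2 (chromosome 10, 128270498 to 128292853), the type I interferon subunit of the complex, was at 10.7, 9.83, 8.61 and 9.59 CPM in control input and 7.39, 7.10, 6.37 and 7.28 CPM in pulldown. Its log2 fold change was -0.48 ± 0.08 (edgeR adjusted p = 0.00032) and the groups did not overlap, but with scaling to library totals, which move all genes alike, it was 0.069 and did not pass, and on log2(TPM + 1) it passed upward at 0.38 (limma adjusted p = 0.0012). Irf9 (chromosome 14, 55603985 to 55610030), the DNA-binding subunit, had 6.05, 5.84, 5.28 and 5.20 CPM in input and 3.36, 2.66, 3.15 and 2.70 CPM in pulldown. That difference was -0.93 ± 0.11 (edgeR adjusted p = 1.7e-05), with no overlap. Irf7, which amplifies type I interferon production, was lower by -1.38 ± 0.27 (edgeR adjusted p = 0.00071), and Irf1, at -0.32 ± 0.15 with overlapping groups, did not pass.

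All 3 members of the ISG15 system and its neighbours were lower. Trim25, a ubiquitin ligase that activates RIG-I (chromosome 11, 88999403 to 89020294), was the most abundant of them at 21.8, 20.6, 19.5 and 21.6 CPM in control input and 12.1, 9.66, 11.7 and 11.1 CPM in pulldown. The groups stood apart by -0.92 ± 0.08 (edgeR adjusted p = 7.9e-07). Isg15 itself was at 0.388 to 0.635 CPM in input and 0.0805 to 0.198 CPM in pulldown (-2.06 ± 0.36), and Usp18, the protease that removes ISG15, differed by -1.59 ± 0.46 with overlapping groups.

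Of the 12 antiviral effectors, 10 were tested in the control pools, and 9 were lower and 1 higher. Ifitm3, a membrane protein that stops virus entry (chromosome 7, 141009590 to 141010744), had 10.4, 5.73, 6.66 and 5.39 CPM in control input and 0.814, 0.417, 0.506 and 0.439 CPM in pulldown. Pool 1 was the highest in both fractions, the groups stood far apart, and the log2 fold change was -3.71 ± 0.27 (edgeR adjusted p = 2.4e-07). Ifit2 (chromosome 19, 34550550 to 34576534) went the other way, with 32.1, 25.1, 22.0 and 24.3 CPM in input and 45.8, 35.6, 34.2 and 31.7 CPM in pulldown. Only the lowest pulldown library lay below the highest input library, that of pool 1, and within each of the 4 pools the pulldown was higher, by 0.38 to 0.63 on the log2 scale. The fitted difference was 0.49 ± 0.13 (edgeR adjusted p = 0.0050). Its neighbour Ifit3, shown beside it after both values were seen, was at 9.83, 6.53, 7.85 and 8.70 CPM in input and 4.22, 2.57, 2.81 and 2.54 CPM in pulldown, a fall by 1.46. Within a library the ratio of Ifit2 to Ifit3 in TPM was 1.21 to 1.66 in the 4 control inputs and 4.62 to 5.94 in the 4 control pulldowns. The other effectors that passed ranged from Rsad2 (viperin) at -0.75 ± 0.22 to Mx2 at -2.43 ± 0.46, while Oas1a and Mx1 were too low to be tested.

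Among other interferon-induced genes 5 of 6 were lower. Ifi27 (chromosome 12, 103434189 to 103440245, overlapping Ifi27l2a) was at 12.9, 12.0, 12.4 and 13.2 CPM in control input and 10.2, 8.59, 7.40 and 8.41 CPM in pulldown. Its groups stood apart by only -0.56 ± 0.09 (edgeR adjusted p = 0.00020), and with library totals the value was -0.02 and did not pass. On log2(TPM + 1) it passed upward at 0.64 (limma adjusted p = 0.00011), still below the median of all genes on that scale. Xaf1, a pro-apoptotic partner of the caspase inhibitor XIAP (chromosome 11, 72301461 to 72313733), was at 2.33, 2.47, 2.12 and 1.96 CPM in input and 0.264, 0.150, 0.0805 and 0.0769 CPM in pulldown. That was the lowest fold change of any member in control pools, -3.96 ± 0.33 (edgeR adjusted p = 7.9e-07). Lgals3bp, a secreted glycoprotein, had -0.16 ± 0.09 with overlapping groups and did not pass. It passed upward with library totals, at 0.39, and on log2(TPM + 1), at 1.16, which is above the median of all genes on that scale.

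Of the 7 rows of interferon-induced GTPases, which attack the vacuoles of intracellular pathogens, 6 were lower. Gbp6 (chromosome 5, 105270702 to 105295871) was at 15.4, 9.15, 7.63 and 7.94 CPM in control input and 2.73, 2.58, 3.01 and 2.47 CPM in pulldown, with a log2 fold change of -1.91 ± 0.20 (edgeR adjusted p = 7.1e-06). Pool 1 was far above the other inputs, and the groups stood apart. The second row named Gbp6, which the reference name table calls Gm43302, had 37.2 to 85.9 counts in the deletion inputs and was at 0 in at least 1 library of each other group, so the split of reads between this row and near-identical copies is uncertain. Gbp7 (chromosome 3, 142530336 to 142550151), on a chromosome carrying Gbp2 and Gbp3 too, had 8.52, 6.74, 9.08 and 8.11 CPM in input and 1.42, 1.34, 1.15 and 1.45 CPM in pulldown. Its fold change of -2.62 ± 0.12 (edgeR adjusted p = 7.2e-09) had the smallest error of the family. Gbp2 and Gbp3 both fell by 3.05, Iigp1 by 1.90 and Igtp by 1.17.

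In antigen presentation 2 of 4 members were lower and 2 did not pass. B2m (chromosome 2, 122147687 to 122153082) was at 63.2, 50.6, 54.3 and 61.9 CPM in control input and 21.9, 22.8, 19.8 and 20.7 CPM in pulldown. The groups did not overlap, and the log2 fold change was -1.45 ± 0.08 (edgeR adjusted p = 1.6e-08). The heavy chain H2-K1 had 6.15, 4.31, 4.43 and 3.50 CPM in input and 0.780, 0.812, 0.414 and 0.747 CPM in pulldown, and it fell by 2.75. H2-D1, the other classical heavy chain (chromosome 17, 35263094 to 35267497), was at 8.69, 9.04, 10.4 and 10.9 CPM in input and 9.15, 11.0, 12.4 and 10.9 CPM in pulldown. Those groups overlapped, and the difference of 0.14 ± 0.10 did not pass. It passed upward with library totals, at 0.69 (edgeR adjusted p = 5.2e-05), and on log2(TPM + 1), at 1.03 (limma adjusted p = 2.5e-05). The ratio of H2-D1 to H2-K1 in TPM was 1.04 to 2.44 in the control inputs and 9.26 to 23.7 in the control pulldowns, a comparison chosen after the values were seen. Class I genes are near-identical in long stretches, so the split of reads among them is uncertain. Tap1, a subunit of the peptide transporter, had -0.47 ± 0.26 and did not pass.

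**Figure D3:**
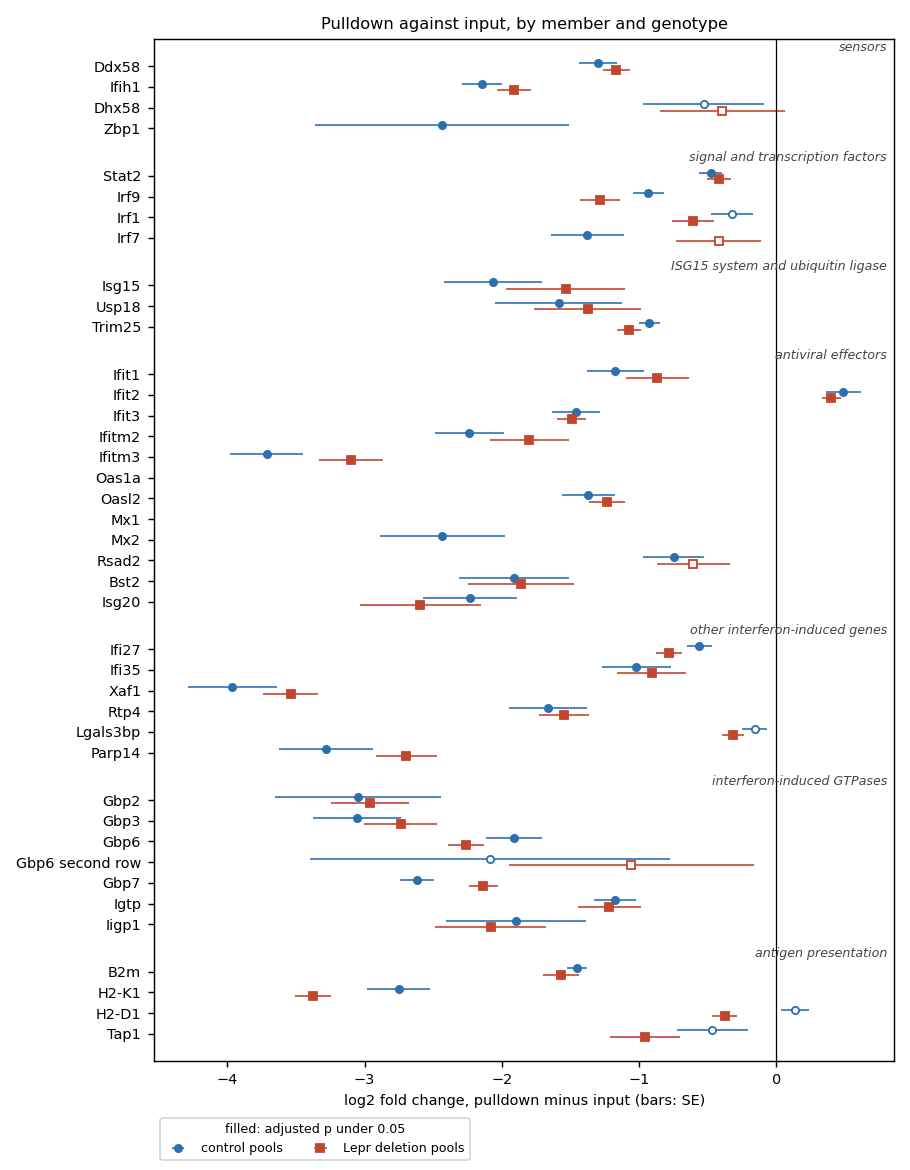
Log2 fold change of pulldown over input for each member tested, by role, with standard errors; circles are control pools, squares Lepr deletion pools, and filled symbols have an adjusted p under 0.05. Nearly all symbols lie left of 0, Ifit2 lies right of it in both genotypes, and Xaf1 and Ifitm3 lie farthest left.

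The same comparison in the pools with Lepr deleted gave 31 lower, 1 higher and 4 not passed of 36 members tested (edgeR, adjusted p under 0.05), where 32.8% of all genes tested were lower and 28.8% higher. With library totals 24 were lower and 1 higher, against 19.7% and 57.4% of all genes, and on log2(TPM + 1) 18 and 5, against 13.4% and 70.9%. The median was -1.33 against -0.01 for all genes. Every pulldown library lay below every input library in 29 members, against 29.8% of genes. Of the 36 members tested in both genotypes, 27 were lower in both and Ifit2 was higher in both. In the deletion pools 19 of 19 microglia and macrophage markers tested were lower in pulldown, from a summed 96.6 to 113 CPM in input to 11.6 to 12.9 CPM in pulldown, and their part was not tested.

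Values in the deletion pools largely repeated the order of the control pools. Ifit2 was at 21.6, 23.9, 22.5 and 25.1 CPM in the inputs of pools 5 to 8 and at 28.8, 29.1, 31.9 and 34.2 CPM in their pulldowns, here with no overlap (0.40 ± 0.07, edgeR adjusted p = 0.00023). Ifit3 fell by 1.49 in the same libraries. Xaf1 and Ifitm3 had -3.54 ± 0.20 and -3.10 ± 0.23, and the lowest antigen presentation value was that of H2-K1 at -3.38 ± 0.13. B2m was at 56.2, 56.4, 66.5 and 53.8 CPM in input and 19.1, 17.5, 26.6 and 15.7 CPM in pulldown, which is -1.57 ± 0.13 (edgeR adjusted p = 2.7e-07).

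Members passed in the control pools and not in the deletion pools, or the reverse, in 8 cases. Irf7, Rsad2, Mx2 and Zbp1 were lower in the control pools only, the last pair being untested in the deletion pools. For Rsad2 the deletion value was -0.60 ± 0.27 (edgeR adjusted p = 0.064), and with the pool as a block it was -0.60 with an adjusted p of 0.026. Irf1, Lgals3bp, Tap1 and H2-D1 were lower in the deletion pools only, by -0.61, -0.31, -0.96 and -0.38. With library totals these 4 did not pass, at -0.15, 0.14, -0.50 and 0.079. On log2(TPM + 1), where the median of all genes is 0.70, Irf1, Lgals3bp and H2-D1 passed upward at 0.30, 0.93 and 0.46, and Tap1 did not pass. None of these 8 differences between genotypes was itself called, as given with the test of the difference below.

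The next comparison asked whether the members in the pulldown differed between pools with Lepr deleted in Pnoc cells and control pools. Of 36 members tested in pulldown, 1 was lower and 0 were higher (edgeR, adjusted p under 0.05), against 0.249% of all genes lower and 0.391% higher. At an unadjusted p under 0.05 there were 7 members, or 7 of 36, against 19.8% of all genes. DESeq2 called 3 higher and 1 lower, against 4.17% and 3.14% of the 14568 genes to which it gave an adjusted p. With edgeR 16859 genes had one, and members without one in DESeq2 were not counted apart. The median log2 fold change was 0.16 against -0.01 for all genes, with 25 values above 0 and 11 below. It was 0.30 without control pulldown 1, 0.096 without control pulldown 4, 0.099 with a minimum mean of 1 CPM and 0.067 on log2(TPM + 1).

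H2-D1 was the member called. Its pulldown levels of 9.15, 11.0, 12.4 and 10.9 CPM in control pools stand beside 8.17, 7.33, 8.05 and 6.97 CPM in deletion pools. No deletion library reached the lowest control library, and the fold change was -0.50 ± 0.10 with an edgeR adjusted p of 0.049, at the edge of the threshold. Groups apart in this direction were found for 4.92% of all genes. Leaving out control pulldown 2, 3 or 4 or deletion pulldown 6, 7 or 8 ended the call, with adjusted p of 0.12 to 0.20, and so did 4 alternatives named in the closing section, while the fold change stayed between -0.40 and -0.61. In input H2-D1 was at 8.69, 9.04, 10.4 and 10.9 CPM in control pools and 9.83, 10.5, 10.3 and 8.74 CPM in deletion pools, with full overlap (0.01 ± 0.10). The other 3 antigen presentation members were also below 0 in pulldown, namely Tap1 at -0.38 ± 0.25, H2-K1 at -0.28 ± 0.24 and B2m at -0.10 ± 0.13, and did not pass.

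Antiviral effectors and GTPases lay mostly above 0 in the same comparison without passing. Ifitm3 was at 0.814, 0.417, 0.506 and 0.439 CPM in control pulldown and 0.863, 1.37, 1.80 and 0.883 CPM in deletion pulldown, which do not overlap by a narrow margin (1.19 ± 0.29, edgeR adjusted p = 0.082). Gbp7 likewise had all 4 deletion libraries, at 1.75, 1.71, 2.03 and 2.02 CPM, above the 1.15 to 1.45 CPM of the controls (0.50 ± 0.13, edgeR adjusted p = 0.095). These were the 2 members with groups apart upward, which 5.09% of genes showed. Ifitm2, a near relative of Ifitm3, had 1.12 ± 0.31 (edgeR adjusted p = 0.10), and the share of reads that the pair exchange is uncertain. In the authors' deposited table Ifitm3, Ifitm2 and Gbp7 passed upward and H2-D1 downward, of 23 members with an adjusted p, and 4.37% of all genes with one passed upward and 3.15% downward.

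Control pool 1 and deletion pool 5 weighed on these values. Without both pools 6 members passed upward, Ifitm3 at 1.58, Ifitm2 at 1.40, Parp14 at 1.25, Oasl2 at 0.58, Gbp7 at 0.56 and Ifit3 at 0.38, and H2-D1 passed downward at -0.61, but then 9.35% and 10.5% of all genes passed upward and downward. The sum of mural and fibroblast markers was 8.17, 6.33, 5.88 and 4.78 CPM in control pulldown and 8.29, 11.6, 19.4 and 7.13 CPM in deletion pulldown, highest in pool 7, where Ifitm3 and Ifitm2 were highest too. Of 10 such markers tested in pulldown 9 were above 0 and none passed. Of 10 endothelial markers 7 were above 0, with a median of 0.13, and Kdr alone passed, at 2.12 ± 0.42 (edgeR adjusted p = 0.049). Astrocyte markers were above 0 in 12 of 12, with a median of 0.19 and none passing, and summed to 383 to 414 CPM in control and 388 to 431 CPM in deletion pulldown. Tanycyte and ependymal markers were above 0 in 7 of 9, with a median of 0.25 and none passing, and summed to 9.06 to 11.8 and 11.2 to 13.9 CPM. Microglia and macrophage markers summed to 13.6 to 14.1 CPM in control and 11.6 to 12.9 CPM in deletion pulldown. The part of these cells in the members' values was not tested.

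**Figure D4:**
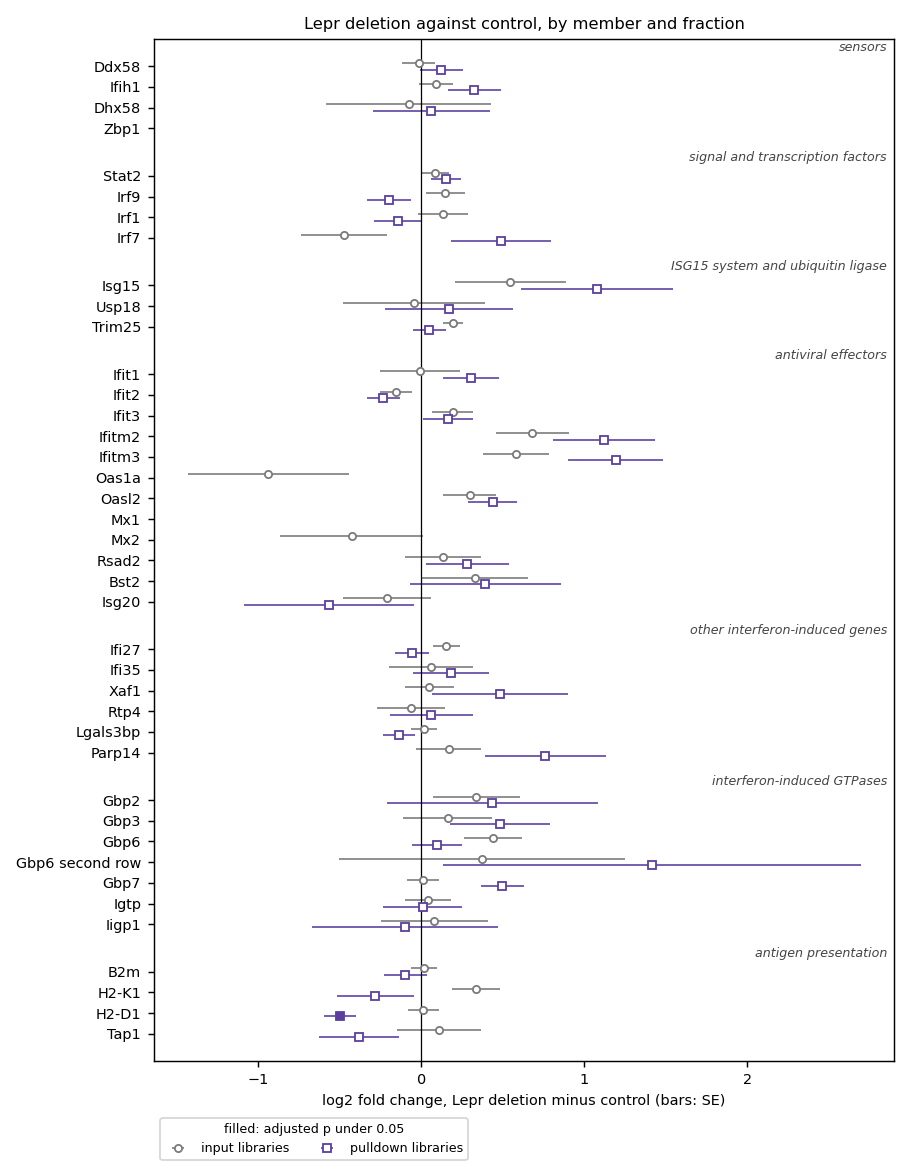
Log2 fold change of Lepr deletion over control for each member tested, by role, with standard errors; circles are input, squares pulldown, and the filled symbol, H2-D1 in pulldown at -0.50, is the only value with an adjusted p under 0.05. Ifitm3 and Ifitm2 lie to the right of 0 in both fractions.

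In the whole hypothalamic lysate no member passed between genotypes. Of 38 tested with edgeR, 0 passed in either direction, against 0.231% of all genes, and 5 had an unadjusted p under 0.05, as had 14.0% of all genes. With DESeq2 0 members passed as well, against 2.3% of the 16356 genes to which it gave an adjusted p. With edgeR 17735 genes had one, and members without one in DESeq2 were not counted apart. Log2 fold changes ran from -0.94 for Oas1a to 0.68 for Ifitm2, with 28 above 0 and 10 below. Trim25 alone had all deletion inputs, at 22.2, 24.0, 25.0 and 24.2 CPM, above all control inputs, at 19.5 to 21.8 CPM, a difference of 0.19 ± 0.06 (edgeR adjusted p = 0.21), and 4.05% of genes had groups apart in that direction. For Gbp6 the deletion inputs of 13.0, 14.2, 12.8 and 14.5 CPM lay within the control range, because control pool 1 had 15.4 CPM and pools 2 to 4 had 7.63 to 9.15 CPM (0.44 ± 0.18, edgeR adjusted p = 0.29). Without control input 1, Gbp6 at 0.72, Ifitm3 at 0.83, Oasl2 at 0.52 and H2-K1 at 0.51 passed, beside 0.866% of all genes upward.

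Pool 1 also carried more mural and fibroblast RNA than the other control pools. The summed markers were 72.2 CPM in its input against 49.4 to 51.3 CPM in pools 2 to 4, while those of deletion pools 5 to 8 held 65.9, 73.8, 118 and 55.2 CPM. In input 12 of 12 of these markers lay above 0 in the deletion pools with none passing, the median being 0.83. Endothelial markers were above 0 in 9 of 11 (median 0.40), and tanycyte and ependymal markers in 8 of 10 (0.23). Markers of T cells, B cells and other leukocytes were above 0 in 4 of 4 (0.49), and no marker of these lists passed. Microglia and macrophage markers were above 0 in 9 of 19, oligodendrocyte and precursor markers in 7 of 12 and astrocyte markers in 5 of 12. Of the 12 astrocyte markers 1 passed, lower in the deletion pools, beside 0.231% of all genes in either direction. The summed GTPases were 34.6 CPM in pool 1, 22.7 to 25.2 CPM in pools 2 to 4 and 30.0 to 31.7 CPM in the deletion pools, whereas microglia and macrophage markers at 99.9 CPM in pool 1 lay within the 99.3 to 118 CPM of the other controls. Whether RNA of mural cells, fibroblasts or the other cell types had a part in the members' values was not tested.

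**Figure D5:**
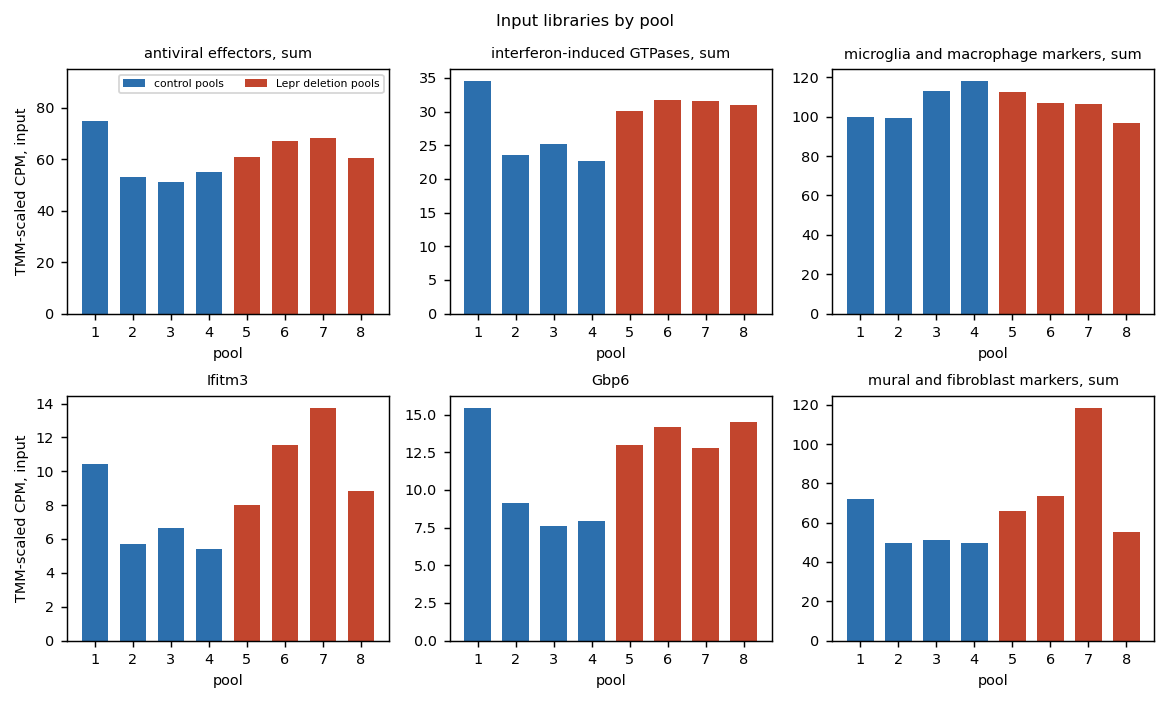
Summed TMM-scaled CPM of antiviral effectors, GTPases and marker lists, and the levels of Ifitm3 and Gbp6, in the input of each pool; bars are single libraries and the y axes start at 0. Pool 1 stands above pools 2 to 4 in every panel except that of the microglia and macrophage markers.

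The test of the difference of enrichment between genotypes, which used all 16 libraries, called 0 of 39 members with edgeR or with DESeq2, against 0.0108% of all genes with edgeR and 0.113% with DESeq2, and 4 members had an unadjusted p under 0.05, as had 8.96% of all genes. H2-D1 came nearest: pulldown over input was 0.07, 0.28, 0.26 and 0.00 on the log2 scale in control pools 1 to 4 and -0.27, -0.52, -0.35 and -0.33 in pools 5 to 8. Every deletion pool lay below every control pool, as in 3.83% of genes with 3 counts in every library, and the fitted difference was -0.52 ± 0.14 (edgeR adjusted p = 0.39). Gbp7 had 0.47 ± 0.15, Irf7 0.95 ± 0.39 and H2-K1 -0.63 ± 0.27, none passing. Ifit2 had -0.10 ± 0.16. Of the 34 members with 3 counts in every library, Ifitm3, Parp14 and Gbp7 had every deletion pool above every control pool, against 3.08% of such genes. Astrocyte markers were above 0 in 12 of 12 in this comparison, with a median of 0.25 and none passing, and their part in the members' values was not tested.

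Members whose promoter window holds the response element letters had a median log2 fold change of -1.91 (n = 15, range -3.71 to -0.48) in control pulldown over input, and members with a window but without them -0.93 (n = 13, range -3.96 to 0.49). In the deletion pools the medians were -1.57 and -0.96. Between genotypes in pulldown they were 0.33 and -0.15. The ranges overlap in each comparison, and no test was made. Isg15, with 3 matches, and Ifit1, with 2, had -2.06 and -1.17 in control pulldown over input, and Xaf1, without one, had the lowest value of all.

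Other genes of the pathway, listed by name with earlier results of these data known, were set beside the members. Over all genes tested in the control pools 34.6% were lower and 30.1% higher in pulldown. Of 16 tested genes for interferon ligands, receptors, kinases and STAT and IRF proteins, 13 were lower and 2 higher, with a median of -0.39. Their lowest adjusted p were those of Irf2 at -0.80 ± 0.07, Irf8 at -2.67 ± 0.27 and Ptpn6, a phosphatase of blood-derived cells, at -3.89 ± 0.43. Ifnb1, Ifnk and Ifne were at 0 in all 8 control libraries. Of 13 tested sensors and adaptors, 9 were lower and 1 higher. Tlr3 fell by 3.75 and Eif2ak2 (PKR) by 1.46, while Adar, the editor of double-stranded RNA, was higher by 0.70 ± 0.04. Of 33 tested effectors, 28 were lower and 2 higher, led by Zc3hav1 at -3.62 ± 0.10, Irgm2 at -3.07 ± 0.17 and Ifit3b at -2.08 ± 0.13.

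The 25 further antigen presentation genes were less uniform, with 11 lower and 3 higher in control pulldown, against 34.6% and 30.1% of all genes. H2-Aa, a class II chain of professional presenting cells, fell by 4.71, while Psme1, a proteasome activator subunit, at 0.68 ± 0.07, and Psmb10, an immunoproteasome subunit, at 0.62 ± 0.06, were higher. The immunoproteasome subunit Psmb8 fell by 2.17. In the deletion pools the lists gave 12 lower and 1 higher of 14, 11 and 1 of 14, 29 and 2 of 33, and 14 and 2 of 25, in the same order. There 32.8% of all genes were lower and 28.8% higher. Between genotypes Adar in pulldown was the only gene of these lists that passed, with 133.6, 133.6, 134.9 and 132.2 CPM in control pools and 150.7, 154.4, 153.5 and 151.4 CPM in deletion pools. The groups stood apart in a narrow range, and the log2 fold change was 0.20 ± 0.04 (edgeR adjusted p = 0.049), at the edge of the threshold. Of all genes in pulldown 0.391% passed upward, and 5.09% had groups apart upward. In input Adar was at 80.1, 85.2, 78.6 and 81.5 CPM in control and 86.1, 95.7, 93.3 and 93.2 CPM in deletion pools, again apart but not passing (0.18 ± 0.05, edgeR adjusted p = 0.15). Groups apart upward in input were found for 4.05% of all genes.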

How the data were processed

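RNA was measured in 16 libraries, 4 per group, from pools of 4 animals. Salmon 1.10.1, DESeq2 1.38.3 and the build GRCm38 are named in the submitters' processing notes. The annotation release, trimming and strand setting are not given in the sources used here, and overlapping and near-identical genes are therefore uncertain. The authors deposited 3 tables by gene: estimated counts, TPM, and counts rescaled from the TPM. A further table deposited by the authors holds their log2 fold changes and adjusted p-values, with no design formula given in the sources used here.

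The estimated counts, rounded, entered the quasi-likelihood test of edgeR 4.0.16 in R 4.3.3 (TMM, filterByExpr with minimum count 10 and minimum total 15), two-sided, with Benjamini-Hochberg adjustment over all genes tested and a threshold of 0.05. Each comparison of a pair of groups used their 8 libraries, and the difference of enrichment used all 16. The SE of an edgeR fold change is its absolute value divided by the square root of the F statistic of that fit. The SDs of levels are over the 4 pools of a group. The script was run on simulated counts in which only well-counted genes were changed, so that run does not cover members near the floor. Alternatives were DESeq2 1.42.0, limma 3.58.1 on log2(TPM + 1) and log2(TPM + 0.1), the rescaled counts, scaling by RLE or by library totals, dropping the filter or asking for a mean of 1 CPM, all libraries in 1 fit, a pool block, and leaving out each library or pools 1 and 5. Library totals of 64435888 to 78623579 set the floor of 3 counts, which covers counting error only. Over the 24 pairs of replicate libraries, chi-square divided by its degrees of freedom was 8.16 to 49.9, above counting noise.

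Input and pulldown of a pool come from the same lysate per the extraction protocol in the labels, so the pool numbers pair them. Their deviations from the group means correlated by -1.9e-05 to 0.179, above 0.1 in 1 of 8 pools, and 6 of 8 pulldowns correlated best with their own input. The genotypes share no pool.

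The members and lists were chosen with earlier results of these data known. Values in every library are given for the member of each role group with the highest mean TPM or the smallest p in control pulldown over input. The same holds for members that passed between genotypes or lay above 0 over input. Up to 3 genes per pathway list with the smallest p, and those passing between genotypes, are named. From the further antigen presentation genes more are named than this rule gives. Members shown outside this rule are H2-K1 and Ifit3, chosen after their values were seen, as were members named where an alternative changed their call. Gene positions and promoter windows come from RefSeq GRCm38.p6.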

Additional observations from a re-analysis of the deposited data

Results flagged for a closer look

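In 10 of 143 sets of 4 libraries of a member in a group, 1 library lay farther from the rest than Dixon's 95% critical value for 4 values; chance alone marks about 1 set in 20. In 7 of the 10 the library apart was the highest and came from control pool 1. In control input these were Ddx58, with 6.84 CPM against 5.52 to 5.69 CPM in the others (gap over range 0.875), Ifih1, with 7.36 against 6.19 to 6.37 CPM (0.850), and Gbp3, with 3.61 against 1.55 to 1.85 CPM (0.853). In control pulldown they were Ifit3, with 4.22 against 2.54 to 2.81 CPM (0.840), Rsad2, with 1.14 against 0.673 to 0.725 CPM (0.888), Rtp4, with 0.998 against 0.495 to 0.538 CPM (0.914), and Parp14, with 0.447 against 0.150 to 0.176 CPM (0.912).

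The other 3 sets pointed to other pools. Mx2 in control input was at 0.703 CPM in pool 4 against 0.242 to 0.318 CPM (0.835), and Ifit1 in deletion pulldown at 1.93 CPM in pool 7 against 1.34 to 1.43 CPM (0.852). H2-K1 in control pulldown was low in pool 3, at 0.414 CPM against 0.747 to 0.812 CPM (0.837), and the same library gave the H2-D1 to H2-K1 ratio of 23.7.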

How the results depend on the processing

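Counts of members lower in pulldown held within 1.5 times under RLE scaling, library totals, both filters, DESeq2, rescaled counts and the fit of all libraries. They were 22 to 32 in control and 24 to 35 in deletion pools, of 25 to 40 members tested. At a mean of 1 CPM they were 22 and 24 of 25, against 4845 of 13714 and 4565 of 13704 genes. With no filter they were 31 and 34 of 40, against 6816 of 28646 and 6837 of 28324 genes. With single libraries left out, 5819 to 6210 and 5430 to 5807 of all genes were lower. The counts of members lower were then 30 to 32 and 31 to 34, with 1 higher throughout. On log2(TPM + 1) and log2(TPM + 0.1) they were 18 in each genotype, with 6 higher in control and 5 in deletion pools; with library totals 3 were higher in control pools, when 60.9% of all genes were higher and 19.0% lower. Library totals and log2(TPM + 1) moved the median of all genes to 0.53 and 0.75 in control and 0.44 and 0.70 in deletion pools. Relative to it the members' median was -1.51 and -1.0 in control and -1.32 and -1.01 in deletion pools, against -1.50 and -1.32.

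With library totals, which move all genes alike, 5 members turned above 0 in each genotype and stayed below the median of all genes, at -0.51 to -0.14 relative to it in control and -0.41 to -0.30 in deletion pools. On each TPM scale 9 turned in each genotype, and all but Lgals3bp stayed below that median; the cause was not tested. In control pools with library totals these were Dhx58 at 0.012, Stat2 at 0.069, Irf1 at 0.22, Tap1 at 0.079 and Lgals3bp at 0.39. Lgals3bp was at 0.27 with rescaled counts, and Dhx58 at 0.012 without pools 1 and 5. On log2(TPM + 1) and log2(TPM + 0.1), those with a call before or after the turn were Stat2 at 0.38 and 0.49, Irf1 at 0.57 and 0.76, Trim25 at 0.034 and 0.040, Rsad2 at 0.072 and 0.17, Ifi27 at 0.64 and 0.66, Ifi35 at 0.012 and 0.036, and Lgals3bp at 1.16 and 1.25. In deletion pools with library totals they were Dhx58 at 0.055, Irf7 at 0.032, Stat2 at 0.040, Lgals3bp at 0.14 and H2-D1 at 0.079, and with rescaled counts Lgals3bp at 0.083. On the same TPM scales they were Stat2 at 0.38 and 0.47, Irf1 at 0.30 and 0.39, Ifit1 at 0.041 and 0.079, Ifi27 at 0.20 and 0.21, Lgals3bp at 0.93 and 1.00, and H2-D1 at 0.46 and 0.50.

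Between genotypes in pulldown the count of members higher was 1 with no filter, 3 with DESeq2, 2 with all libraries in the fit, 6 without pools 1 and 5, and 0 to 2 without single libraries. The count lower was 0 with RLE scaling, rescaled counts, log2(TPM + 1) and log2(TPM + 0.1), and 0 to 1 without single libraries; the H2-D1 adjusted p ran from 0.00039 (DESeq2) to 0.20 over these alternatives. In input the count higher was 6 without pools 1 and 5 and 0 to 4 without single libraries, and the count lower was 0 to 0. The difference of enrichment gave 0 to 0 in each direction. Over all genes in pulldown, 108 passed with edgeR, 1065 with DESeq2 and 3363 without pools 1 and 5, and in input 41, 376 and 1957. In pulldown 136 of 27163 genes passed upward with no filter and 293 of 18530 with all libraries in the fit. Without control pulldown 1 it was 262 of 17069 genes. In input 767 of 17838 genes passed upward without pools 1 and 5. With the pool as a replicate block the counts were 31 of 38 lower in control and 32 of 36 lower in deletion pools, with 1 higher in each. Of all genes, 6354 of 17570 and 5804 of 17423 were lower, and 5824 and 5250 higher. For the difference of enrichment the count of members was 0. The block changed the call of no member other than Rsad2 in deletion pools. No paired analysis was possible between genotypes because they share no pool numbers.

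Depth limits Mx1, Oas1a, Mx2 and Zbp1, which lie near 3 counts in pulldown.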
